A study of Ambystoma mexicanum with 61 samples.

Results

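*Muc5ac* and *Muc5b* were described in the axolotl, *Ambystoma mexicanum*, across 61 bulk RNA-seq libraries from neotenic and metamorphosed adults. The members were the gene models whose annotated symbol is MUC5AC or MUC5B, with the model of most counts taken for each symbol, which gave 2 models of the 23251 counted. Neotenic axolotls keep larval traits as adults, and metamorphosis was induced with 50 nM thyroxine (T4) for about 12 days, followed by 2 weeks of maintenance. All animals were of the d/d strain and about 12 months old. Tissues came from 2 neotenic and 2 metamorphosed animals, so a group is at most 2 libraries. The p-values measure only the spread between replicate libraries, pooled over all groups of a fit. The 34 neotenic libraries cover 17 tissues with 2 libraries each. The 27 metamorphosed libraries cover 15 tissues, of which brain, fore limb and heart had 1 library and were given values with no test. Gill and gonad had neotenic libraries only.

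Gel-forming mucins are very large secreted glycoproteins whose ends carry cysteine-rich von Willebrand D domains. These domains link the chains into polymers, the chains carry dense O-linked sugars between them, and the polymers swell into mucus when secretory granules are released. In mammals *Muc5ac* is the main gel-forming mucin of the stomach surface and of airway goblet cells, and *Muc5b* is that of airway glands. Amphibian skin is kept moist by mucus from epidermal and glandular cells, and the study probed both genes in skin sections of both states by RNA in situ hybridization. Its single-cell data had placed higher levels of both genes in secretory cells of metamorphosed skin, and the hybridization was its experimental check. The bulk counts below are of whole tissue and not of that cell type.

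The probes used there are printed 5′ to 3′ because they are the only designed sequences that name the 2 genes in this study, and capitals mark nothing in them.
*Muc5ac* probe: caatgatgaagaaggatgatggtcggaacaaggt
*Muc5b* probe: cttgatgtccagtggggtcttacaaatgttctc
The first has 34 bases and the second 33, with 15 G or C bases in each. They were not placed on the genome here, so whether they lie in the counted models is not known.

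Both models lie beside each other on scaffold AMEXG_0030000171 of the AmexG v3.0.0 assembly. The *Muc5ac* model (AMEXTC_0340000049619_MUC5AC) spans 2778902 to 2823606 on the plus strand, with 31 exons of 5350 bases in all. The *Muc5b* model (AMEXTC_0340000045508_MUC5B) spans 2825080 to 2825930 on the same strand, begins 1473 bp behind it and has a single exon of 851 bases. A model with no gene symbol, AMEXTC_0340000033050, follows 3011 bp further on, from 2828942 to 2854771, with 23 exons of 4771 bases. Summed over all libraries, *Muc5ac* held 566096 counts, *Muc5b* 374792 and the unnamed model 763872, or 105.8, 440.4 and 160.1 counts per base. Whether these 3 models are separate genes or stretches of fewer transcripts cannot be told from the counts, and the values below are of the models as annotated. Of the other models with these symbols, a second *Muc5b* model lies 392820 bp downstream on the same scaffold and is described separately below. The third *Muc5b* model, on another scaffold, had 204 counts in all and no more than 12 in a library, and was not described further.

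Library totals were 2888466 to 16895107 counts in neotenic libraries and 69278 to 27389476 in metamorphosed ones, with medians of 7941755 and 7077249. The lowest total by far was metamorphosed skin replicate 1, in which *Muc5ac* had 16 counts and *Muc5b* 12. Marker genes went against the label of 2 libraries. The library labelled neotenic stomach replicate 2 had a summed level of stomach gland markers of 7.67 CPM, counts scaled to a common library total, against 12034 in replicate 1, and 19707 of keratinocyte markers. The library labelled neotenic tail replicate 2 had 15588 of the stomach gland markers, the highest of all 61 libraries, and 743 of the keratinocyte markers, against 18068 in tail replicate 1. Only 2 of the 11 stomach gland markers had a gene model, *Gkn1* with 319669 counts in all and *Aqp4* with 37051. The name of the list therefore stands for these 2 genes and not for a cell type. Their sum was also 430 to 972 CPM in lung and 74.8 to 624 in eye. Because of the marker mismatch, results that rest on the library labelled neotenic stomach or tail replicate 2 are given with and without them. Metamorphosed bladder, hind limb, intestine and skin replicate 2, and the only metamorphosed fore limb library, also carried raised markers of other tissues, such as 792 to 1501 CPM of intestinal markers in the 4 that are not intestine, where the median of all libraries was 71.7. The intestinal list is not particular to intestine, as it summed to 1358 to 6370 CPM in the liver libraries and 393 to 856 in kidney. Likewise the liver list summed to 4129 to 26267 CPM in intestine. These list names therefore stand for the listed genes and do not tell which tissue a raised sum came from. Metamorphosed skin replicate 1, the shallow library, also held 289 CPM of intestinal, 1573 of liver and 534 of lung markers. Neotenic skin had 18.2 and 6.84 of the intestinal, 94.5 and 53.8 of the liver and 37.8 and 40.9 of the lung markers. Metamorphosed lung replicate 2 had 297 CPM of intestinal and 766 of liver markers, against 1.21 and 151 in replicate 1. Liver markers summed to 570 CPM in metamorphosed eye replicate 2, and lung markers to 573 in metamorphosed stomach replicate 1. The 4 metamorphosed libraries left out in some fits below are therefore not all that held such markers. In bulk libraries of this kind, fewer cells of a type and less RNA per cell cannot be told apart.

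Both mucins had their highest levels in stomach, bladder and lung, in both states. Levels are given as CPM with the totals scaled by trimmed mean of M values (TMM) normalization, replicate 1 before replicate 2, and are compared between libraries and not between the genes. In stomach *Muc5ac* had 17293 CPM in neotenic replicate 1 and 139 in the library labelled neotenic stomach replicate 2, and 12464 and 6905 in the metamorphosed libraries. *Muc5b* had 15662 and 160 CPM in the same neotenic libraries, and 8388 and 2580 after metamorphosis. For both genes 3 of the 4 stomach libraries were high, and the low library was the one whose markers go against its label. In neotenic stomach replicate 1 the *Muc5ac* model took 1.70% of all counts and the *Muc5b* model 1.54%.

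The urinary bladder was next. *Muc5ac* had 6779 and 3420 CPM in the neotenic bladder and 7621 and 1054 after metamorphosis. *Muc5b* had 4645 and 2290 CPM, and then 4187 and 649. Replicate 1 was the higher library for both genes in both states, and the metamorphosed replicate 2 was the library with raised markers of other tissues. Ranked by counts per base among all gene models, *Muc5b* came second in bladder replicate 1 of either state.

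In lung, whose mammalian counterpart makes both mucins in its airways, *Muc5ac* had 3708 and 3021 CPM in neotenic and 3728 and 3131 in metamorphosed animals. *Muc5b* had 2364 and 2739 CPM in neotenic lung and 2473 and 744 in metamorphosed lung. The 4 *Muc5ac* values lay close together, while *Muc5b* was low in metamorphosed lung replicate 2 alone. That library had 1604880 counts in all and also held raised markers of other tissues.

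Outside these organs and the library labelled neotenic tail replicate 2, no library exceeded 397 CPM of *Muc5ac* or 379 of *Muc5b*. Of the 34 neotenic libraries, 6 exceeded 1000 CPM of *Muc5ac* and 25 were under 100 CPM, around a median of 32.9. In the 27 metamorphosed libraries the median was 145 CPM, with 6 over 1000 and 12 under 100. *Muc5b* had medians of 29.2 and 91.6 CPM, with 25 of 34 and 18 of 27 libraries under 100. The lowest library of each state was neotenic gonad replicate 2, with 1.07 CPM of *Muc5ac* and 1.12 of *Muc5b* from 23 and 24 counts, and metamorphosed tail replicate 1, with 14 and 8 counts.

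**Figure D1:**
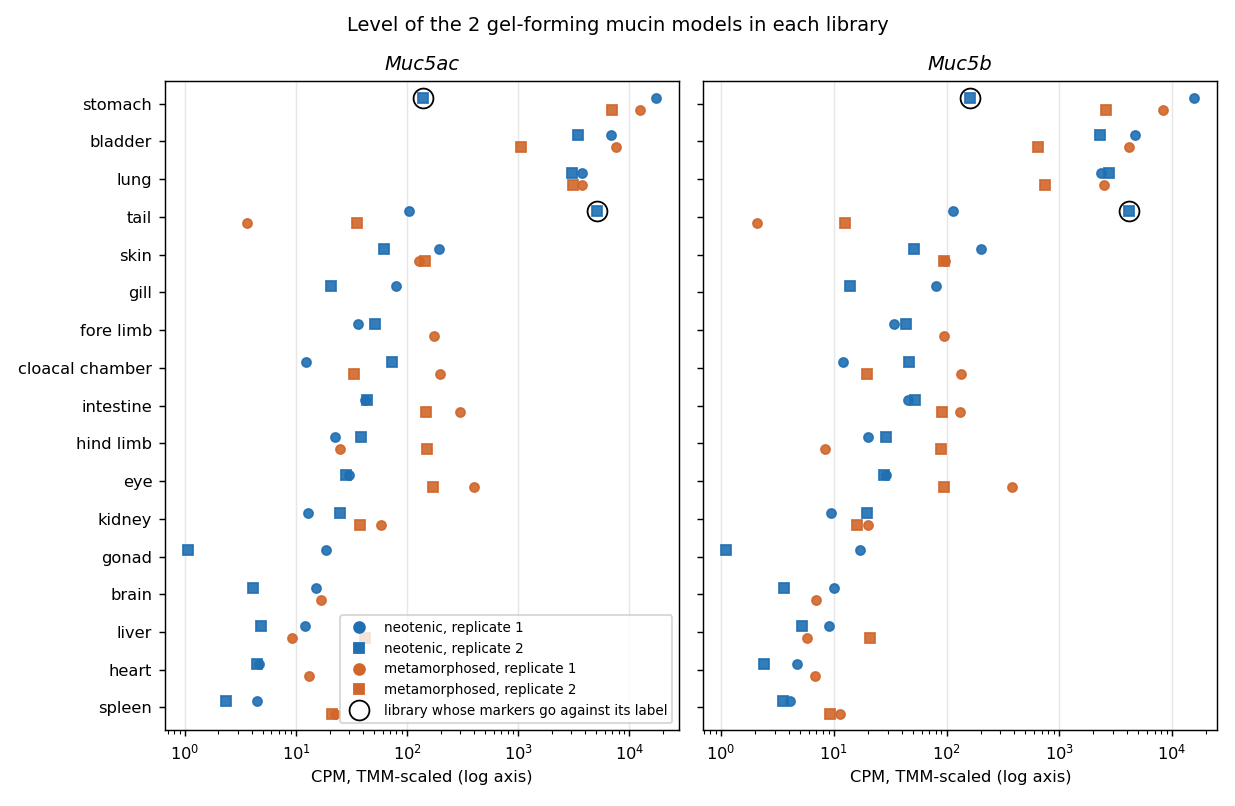
Level of *Muc5ac* (left) and *Muc5b* (right) in each of the 61 libraries, as TMM-scaled CPM on a log axis, by tissue, with state in colour, replicate 1 as circles and replicate 2 as squares. Stomach, bladder and lung hold the highest values, from 744 to 17293 CPM apart from metamorphosed bladder replicate 2 for *Muc5b* (649) and the ringed neotenic stomach replicate 2 (139 and 160), and the other ringed library, labelled neotenic tail, has 5114 and 4109.

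Among the neotenic tissues, each tissue was set against the mean of the other 16 in edgeR's quasi-likelihood framework, with 18982 genes tested. *Muc5ac* was higher in stomach by 7.36 (SE 0.61) on the log2 scale, in bladder by 6.52 (SE 0.62), in lung by 5.90 (SE 0.63) and in the tissue labelled tail by 5.49 (SE 0.64), with Benjamini-Hochberg adjusted p of 6.71e-08, 3.78e-07, 4.67e-07 and 8.59e-06. *Muc5b* gave 7.44, 6.16, 5.71 and 5.40 in the same tissues, with adjusted p of 4.18e-08, 4.90e-07, 4.55e-07 and 6.70e-06. Of all genes, 4.98% were called higher in stomach, 6.32% in bladder, 10.1% in lung and 5.58% in tail. Spleen was lower, with log2 fold changes of -4.70 (adjusted p = 0.0257) for *Muc5ac* and -4.27 (adjusted p = 0.0290) for *Muc5b*, where 16.3% of genes were called lower. Heart was called lower for *Muc5b* (log2 fold change -4.45, adjusted p = 0.0470, against 3.68% of genes) but not for *Muc5ac* (-4.31, adjusted p = 0.0642). Brain passed for *Muc5b* when the batch number was kept as a replicate block (-3.46, adjusted p = 0.0494) and not without it (-3.38, adjusted p = 0.0534).

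The stomach and tail calls rest on 1 library each. With stomach replicate 1 left out, whose markers match its label, the stomach values fell to 1.40 (adjusted p = 0.635) and 1.83 (adjusted p = 0.403). With the library labelled tail replicate 2 left out, the tail values fell to 0.87 (adjusted p = 0.898) and 1.22 (adjusted p = 0.756). Leaving out either bladder or either lung library kept those calls, with log2 fold changes from 5.56 to 6.93. Without the libraries labelled stomach and tail replicate 2 together, more tissues were called for *Muc5ac*, so the set called depends on them.

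Ordered by mean level, the 17 neotenic tissues gave 16 neighbouring pairs for each gene. No pair passed edgeR's test for the mucin, so neighbours were not told apart beyond the spread of the libraries. Tail against skin was the largest step of both mucins, and only 5 of all 18982 genes passed there. That pair therefore says little about the mucins. The most genes passing were 6096 among the *Muc5ac* pairs (brain against gonad) and 6838 among the *Muc5b* pairs (brain against spleen). The lowest adjusted p was 0.505 for *Muc5ac* and 0.518 for *Muc5b*, and the lowest unadjusted p 0.0136 and 0.0147. Below the leading tissues, *Muc5ac* had 193 and 61.4 CPM in skin, 79.9 and 20.4 in gill, 35.8 and 51.5 in fore limb, 41.8 and 43.8 in intestine, and 22.2 and 38.7 in hind limb. *Muc5b* had 204 and 51.0 CPM in skin, 79.9 and 14.0 in gill, 34.3 and 43.7 in fore limb, 45.6 and 52.7 in intestine, and 20.0 and 29.1 in hind limb. Replicate libraries of 1 neotenic tissue differed by a median factor of 1.98 for *Muc5ac* and 2.03 for *Muc5b*, so this middle range is not resolved into an order. Tail replicate 1, whose markers match its label, had 105 and 115 CPM, within the range of the skin libraries.

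The effect of metamorphosis was tested in the 12 tissues with 2 libraries per state, as the log2 fold change of metamorphosed against neotenic libraries in a model of all 61 libraries and 20216 genes. In skin, the tissue of the in situ probes, neither gene was called. *Muc5ac* had 193 and 61.4 CPM in neotenic skin and 129 and 145 after metamorphosis. *Muc5b* had 204 and 51.0 CPM, and then 96.7 and 94.8. For both genes the metamorphosed values fell between the neotenic ones. For *Muc5ac* this placing depends on the normalization, as the TMM factor of the shallow metamorphosed library was 1.79. By share of the library total, *Muc5ac* had 0.0153% to 0.0231% in metamorphosed and 0.00619% to 0.0177% in neotenic skin. The highest of these shares was that of the shallow library. *Muc5b* still fell between by that share. The 16 and 12 counts of the shallow metamorphosed library allow 73.7 to 209 CPM and 49.9 to 169 CPM (exact Poisson 95% intervals, counting error only). The log2 fold change was 0.11 (SE 1.37, adjusted p = 0.990) for *Muc5ac* and -0.41 (SE 1.37, adjusted p = 0.892) for *Muc5b*. A span of 2 SE either side covers a 0.162-fold to 7.22-fold level of *Muc5ac* and a 0.112-fold to 5.05-fold level of *Muc5b*. A change of several fold in either direction was therefore not detectable in this fit. Its SE pool the spread of replicate libraries over all tissues. Among these are neotenic stomach and tail, where the 2 libraries differed 124-fold and 48.9-fold for *Muc5ac*. In skin 4.89% of genes were called, 447 higher and 542 lower, and with DESeq2's size factors 509 were higher and 295 lower.

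Eye had the largest increase of both genes. *Muc5ac* went from 29.9 and 27.9 CPM in neotenic eye to 397 and 171 in metamorphosed eye, and *Muc5b* from 29.3 and 27.6 CPM to 379 and 95.2. The neotenic libraries were nearly equal and both metamorphosed ones lay above them. The log2 fold changes of 3.30 (SE 1.47) and 3.06 (SE 1.45) had unadjusted p of 0.0318 and 0.0417 by edgeR's quasi-likelihood test, and adjusted p of 0.709 and 0.756, so neither passed. The libraries of the 2 states did not overlap for 38.9% of all genes in eye. The summed skeletal muscle markers also moved, from 710 and 2844 CPM in neotenic to 11482 and 9435 in metamorphosed eye. Its liver markers went from 68.48 and 100.02 CPM to 168.3 and 570.2. Immune cell markers also rose there without overlap, and ciliated cell and kidney tubule markers fell without overlap. Intestinal markers overlapped, at 33.04 and 47.81 CPM in neotenic and 12.09 and 188.8 in metamorphosed eye, as did the remaining lists. The part of these markers in the eye result was not tested.

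Intestine and spleen had the next largest values for *Muc5ac*. In intestine, where *Muc2* is the main gel-forming mucin in mammals, *Muc5ac* had 41.8 and 43.8 CPM in neotenic and 299 and 149 in metamorphosed libraries, and *Muc5b* 45.6 and 52.7 against 132 and 91.7. The log2 fold changes were 2.39 (adjusted p = 0.734) and 1.18 (adjusted p = 0.905). In spleen *Muc5ac* had 4.46 and 2.32 CPM in neotenic and 22.2 and 20.9 in metamorphosed libraries, and *Muc5b* 4.09 and 3.56 against 11.4 and 9.28. Here the values were 2.67 (adjusted p = 0.601) and 1.44 (adjusted p = 0.824). The spleen difference of *Muc5ac* passed when only the 4 spleen libraries were fitted (2.55, adjusted p = 0.0133), a fit that called 6.59% of genes higher. Markers of other tissues also moved in the spleen libraries. Every marker list but that of the eye was higher in both metamorphosed than in both neotenic spleen libraries. Bladder markers summed to 0.69 and 3.44 CPM in neotenic and 30.9 and 10.7 in metamorphosed spleen, and lung markers to 21.0 and 31.4 against 59.3 and 46.5. The 2 stomach gland markers summed to 2.07 and 4.06 CPM in neotenic and 28.8 and 23.3 in metamorphosed spleen, the 7 intestinal markers to 8.27 and 7.501 against 125 and 90.5, the 11 skeletal muscle markers to 21.7 and 27.1 against 139 and 199, and the 7 liver markers to 29.3 and 29.8 against 403 and 327. In intestine the stomach gland markers went from 15.5 and 4.40 CPM to 60.3 and 29.2. Its bladder markers went from 2.92 and 2.55 to 5.13 and 188, and its intestinal markers from 25261 and 21206 to 14866 and 5154. Ciliated cell and kidney tubule markers also rose there without overlap, and skeletal muscle markers fell. The part of these markers in the spleen and intestine results was not tested. In both tissues the states did not overlap for either gene, as was so for 33.1% and 45.9% of all genes.

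In the remaining 7 tissues the states overlapped for both genes, apart from *Muc5ac* in kidney, which had 12.9 and 24.7 CPM in neotenic and 57.7 and 37.4 in metamorphosed libraries, where 39.0% of genes did not overlap. The stomach gland markers in kidney went from 4.33 and 5.33 CPM to 50.1 and 52.2 and the skeletal muscle markers from 55.1 and 72.5 to 414 and 369, and their part was not tested. The log2 fold changes of *Muc5ac* and *Muc5b* were 1.599 and 0.909 in liver, 1.52 and 0.99 in hind limb, 1.44 and 1.40 in cloacal chamber, 1.33 and 0.30 in kidney, 0.15 and -0.53 in stomach, 0.03 and -0.67 in lung, and -0.23 and -0.52 in bladder. Their SE lay between 1.34 and 1.39 and none passed. Without the library labelled neotenic stomach replicate 2, the stomach values were -0.84 and -1.51. Hind limb was uneven within the metamorphosed state, with 25.0 and 150 CPM of *Muc5ac* and 8.27 and 88.6 of *Muc5b*, the high value being the library with raised markers of other tissues. Without that library the hind limb values turned to -0.28 and -1.57. Bladder turned the other way, to 0.58 and 0.27, when its metamorphosed replicate 2 was left out.

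Tail was the only tissue in which either gene was called. Over all genes, 0.717% were called in tail, of which 0.356% lower, against 0.599% in hind limb, 0.49% in spleen, 0.0198% in liver, 0.00495% in bladder and 0 by edgeR in the other 6 tissues, skin apart, where 433 to 1754 genes had an unadjusted p under 0.05. In the neotenic libraries *Muc5ac* had 105 CPM in replicate 1 and 5114 in the library labelled tail replicate 2, against 3.65 and 35.3 in metamorphosed tail. *Muc5b* had 115 and 4109 CPM against 2.08 and 12.7. The states did not overlap, and the library labelled tail replicate 2 stood far above the rest. The log2 fold changes were -7.06 (SE 1.75, adjusted p = 0.0463) and -8.14 (SE 1.83, adjusted p = 0.0274), and 32.7% of genes did not overlap in tail. Without the library labelled tail replicate 2, which holds the stomach markers, the values were -2.42 (adjusted p = 0.740) and -3.94 (adjusted p = 0.460), and neither was called. The tail effect differed from the mean of the other 11 tissues by -8.79 (SE 1.90, adjusted p = 0.0420) for *Muc5b*, in a contrast that called 0.119% of genes, and by -8.36 (SE 1.87, adjusted p = 0.0630) for *Muc5ac*, and the *Muc5b* difference was -4.49 (adjusted p = 0.487) without both libraries that go against their labels. Of the other mucins and their relatives, only the membrane mucin *Muc1* was called in a tissue, also in tail, with 542 and 4041 counts against 45 and 96 (log2 fold change -4.97, adjusted p = 0.0292), and it too was not called without that library (-2.23, adjusted p = 0.622).

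**Figure D2:**
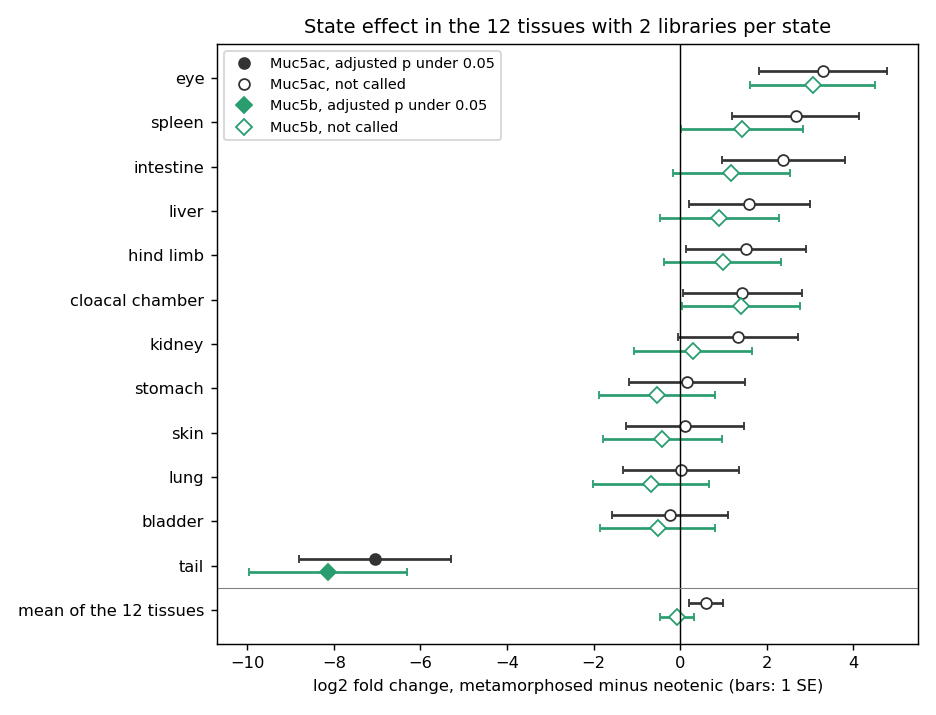
Log2 fold change of *Muc5ac* and *Muc5b*, metamorphosed minus neotenic, in the 12 tissues with 2 libraries per state and as their mean, with bars of 1 SE and filled symbols for adjusted p under 0.05. Only the 2 tail values, -7.06 and -8.14, are called, and 10 *Muc5ac* and 7 *Muc5b* values lie above 0.

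Over the 12 tissues, *Muc5ac* lay above 0 in 10 and *Muc5b* in 7, and in 9 and 7 without the 2 libraries that go against their labels. The mean effect was 0.60 (SE 0.39, adjusted p = 0.328) for *Muc5ac* and -0.08 (SE 0.39, adjusted p = 1) for *Muc5b*, in a contrast that called 17.9% of genes. All tissues of a state came from the same 2 animals, and a mean over tissues takes their libraries as independent. The p-values of such means therefore do not measure the spread between animals. With tail left out of the mean, *Muc5ac* was called higher (1.30, adjusted p = 0.0292) and *Muc5b* was not (0.65, adjusted p = 0.320), in a contrast that called 9.75% of genes higher. The stomach gland markers were higher in both metamorphosed than in both neotenic libraries in 7 of these 11 tissues, among them cloacal chamber, at 5.13 and 6.61 against 30.6 and 30.4 CPM, and hind limb, at 14.5 and 9.21 against 70.0 and 56.3, and their part in the mean was not tested. With tail kept and the 2 libraries that go against their labels left out, the means were 0.91 (adjusted p = 0.0530) and 0.19 (adjusted p = 0.908). In the 3 tissues with a single metamorphosed library and no test, *Muc5ac* had 175 CPM in fore limb against 35.8 and 51.5, 16.7 in brain against 15.1 and 4.13, and 13.1 in heart against 4.59 and 4.47. *Muc5b* had 94.5 CPM in fore limb, 6.94 in brain and 6.85 in heart.

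The ratio of the 2 models within a library does not depend on its normalization, and depth enters only through counting error. *Muc5ac* had 0.654 to 1.86 counts for each *Muc5b* count in the neotenic libraries, with a median of 1.10, and 1.05 to 4.21 in the metamorphosed libraries, with a median of 1.82. Per base the medians were 0.176 and 0.290, so *Muc5b* had more counts per base in every library. The mean log2 ratio was higher in metamorphosed than in neotenic libraries in 12 of 12 tissues, by 0.22 in bladder to 1.31 in spleen. In intestine the count ratio was 0.831 and 0.916 in neotenic libraries and 1.62 and 2.27 in metamorphosed ones, and in skin it was 0.948 and 1.21 against 1.33 and 1.53. The libraries of the states overlapped in cloacal chamber and lung and in no other tissue. No interval was put on these ratios, and 14 libraries had under 50 counts in at least 1 of the models. Metamorphosed skin replicate 1 had 16 and 12 counts, and metamorphosed tail replicate 1 had 14 and 8. Of single genes, 24.1% to 46.4% did not overlap, by tissue. The same share for ratios of other gene pairs was not computed, so whether such a shift is unusual is not known. The mean difference was 0.79 on the log2 scale, a 1.72-fold ratio, where replicate libraries had a pooled SD of 0.39. Without the 14 libraries of low counts it was 0.72, above 0 in 11 of 11 tissues. The tissues of a state came from the same 2 animals, so the 12 tissues are not 12 independent observations and no p is given. With 2 animals against 2, an exact permutation test could not go below 0.333.

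The difference depended on which model was the partner. With the unnamed model behind *Muc5b* in place of *Muc5b*, *Muc5ac* was lower relative to it after metamorphosis in 12 of 12 tissues. The mean was -0.76 and the tissues ranged from -1.89 to -0.0079. In metamorphosed bladder *Muc5ac* and the unnamed model had 76815 and 74604 counts in replicate 1, and 25024 and 71956 in replicate 2. In metamorphosed hind limb they had 112 and 204, then 2319 and 29248. This ratio was not computed without the 4 metamorphosed libraries with raised markers. With it in place of *Muc5ac*, the ratio to *Muc5b* rose by a mean of 1.55. Relative to the neotenic libraries, the metamorphosed ones thus had, on average, the least *Muc5b*, more *Muc5ac* and the most of the unnamed model. The unnamed model itself had a mean effect over the 12 tissues of 1.56 (SE 0.42, adjusted p = 0.00901), in a contrast where 10.9% of genes were called higher, and an adjusted p of 0.101 or more in each tissue alone. Like the other means over tissues, this contrast takes libraries of the same animals as independent. The unnamed model was not called with the replicate block within each state (0.62, adjusted p = 0.688), a fit whose contrast is the state effect at replicate 1. Nor was it called without the 4 metamorphosed libraries with raised markers (0.97). Its value in skin was 2.22 (SE 1.49, adjusted p = 0.379), with 363 and 103 CPM in neotenic and 346 and 1814 in metamorphosed libraries. Across libraries it had 0.616 to 4.03 counts per *Muc5ac* count in the neotenic state and 0.786 to 12.6 in the metamorphosed state. When the 3 neighbouring models were added and tested together, the mean effect was 0.99 (adjusted p = 0.0826), skin 1.44 and tail -6.77 (adjusted p = 0.0607).

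**Figure D3:**
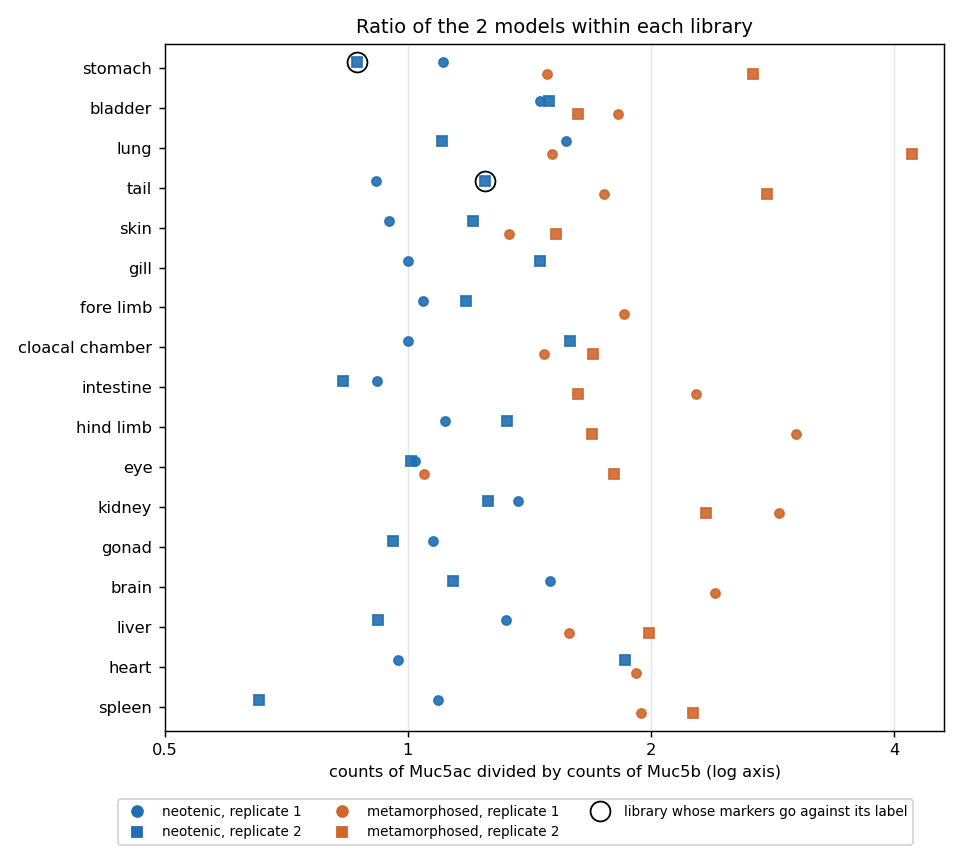
Counts of *Muc5ac* divided by counts of *Muc5b* in each library, on a log axis, by tissue and state, with the symbols of the level plot. Neotenic libraries lie between 0.654 and 1.86 and metamorphosed ones between 1.05 and 4.21, and the metamorphosed points lie to the right of the neotenic ones in 10 of the 12 tissues with 2 libraries per state.

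The second *Muc5b* model (AMEXTC_0340000081753_Muc5b, 3247592 to 3248464 on the same scaffold, 1 exon of 873 bases) was a different case. It had 4325 counts in all, of which the 2 neotenic gill libraries held 68.3%, with 2632 and 323. Gill was the only tissue where its counts exceeded those of the first *Muc5b* model, at 313% of them. Fore limb had 38 and 96 counts, skin 38 and 73, hind limb 14 and 63 and tail replicate 1 had 55. The library labelled neotenic stomach replicate 2, which holds the keratinocyte markers, had 942, while stomach replicate 1 had 1. Stomach replicate 1, bladder and lung, which led for the first *Muc5b* model, had 0 to 6.

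Against the other 16 neotenic tissues, the second model was higher in gill by 8.63 (SE 0.75, adjusted p = 1.67e-07, with 9.48% of genes called higher) and in fore limb by 4.02 (SE 0.98, adjusted p = 0.0119, with 7.19%), and in the tissue labelled stomach by 7.23 (adjusted p = 1.08e-05) through the library that goes against its label. The gill call held without either gill library (5.69 and 9.52), and the fore limb call was lost without either fore limb library (adjusted p of 0.0627 and 0.202). Gill has no metamorphosed library. The model exceeded 3 counts in 14 of 34 neotenic libraries and in 1 of 27 metamorphosed libraries, where it had 4 counts in hind limb replicate 2. The share of all genes with such a loss was not computed. The keratinocyte markers went from 15969 and 18124 CPM to 1878 and 1847 in hind limb, and from 15103 and 21500 to 3984 and 1666 in skin. Their part was not tested. Fore limb, at 7.83 CPM in the neotenic mean, was at least 31.4-fold higher than the level that 3 counts would give in its metamorphosed library, which had none. Skin had 2.46 and 6.88 CPM in the neotenic libraries and 0 counts in both metamorphosed ones. Its neotenic mean was at least 11.6-fold higher than the 0.401 CPM that 3 counts would give in metamorphosed replicate 2, while 3 counts in the shallow replicate 1 would give 24.2 CPM, so that library sets no bound. The pattern was not particular to this model. The next models on the scaffold, LOC108713473 and LOC108432662, also led in neotenic gill, with 355 to 1883 and 487 to 1903 counts. In skin they had 27 to 78 and 44 to 90 counts in neotenic libraries and 0 in metamorphosed ones.

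**Figure D4:**
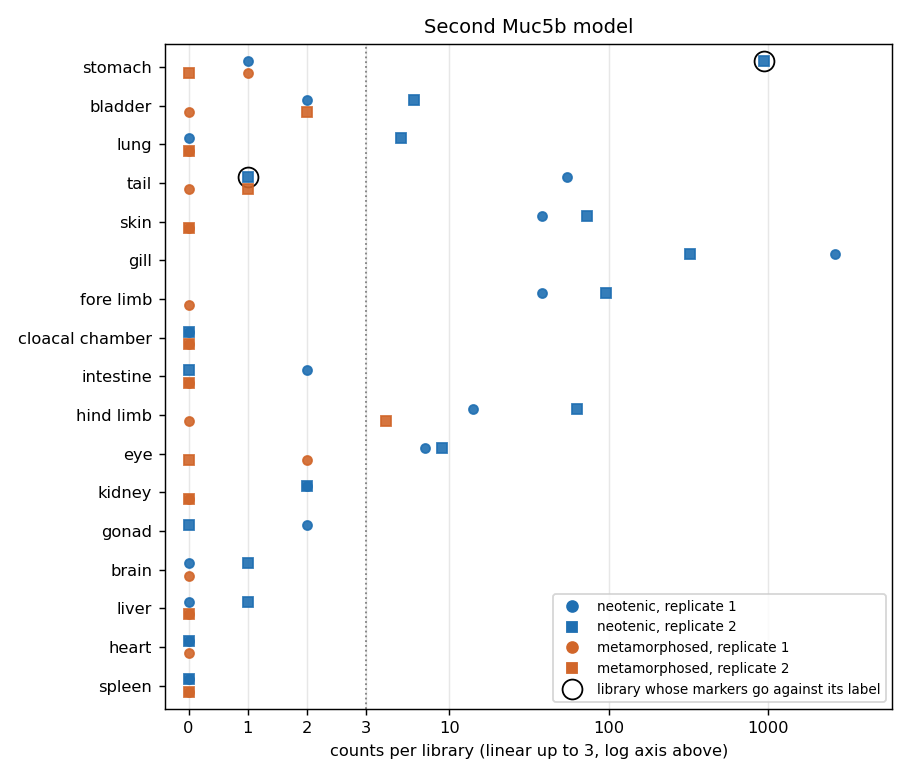
Counts of the second *Muc5b* model in each library, on an axis that is linear up to 3 and logarithmic above, by tissue and state, with the symbols of the level plot. The gill libraries (2632 and 323) and the ringed library labelled neotenic stomach replicate 2 (942) lead, and no metamorphosed library exceeds 4.

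Genes that work with gel-forming mucins were taken from 8 lists of 103 genes in all, of which 65 were tested. In skin 2 of the 65 were called higher and 2 lower, against 2.21% higher and 2.68% lower of all genes, and all genes together had a median of -0.39 on the log2 scale. In the same libraries the 10 keratinocyte and surface epithelium markers with a model, of 15 listed, went from a summed 15103 and 21500 CPM to 3984 and 1666, with 1 at 0 in metamorphosed replicate 1 and 0 at 0 in replicate 2, and their part in the skin values of the lists was not tested. With the batch number as a replicate block over all tissues 4 genes were called lower, where 582 of all 20216 genes were. With a replicate block within each state, which tests the effect at replicate 1, 1 was called higher, where 167 of all genes were. The partner proteins of mucus held both genes that rose. *Zg16*, a lectin of goblet cell granules in mammals, had 1.29 and 1.13 CPM in neotenic and 153 and 1672 in metamorphosed skin (log2 fold change 9.55, SE 1.93, adjusted p = 0.00912). *Reg4*, a secreted lectin of the mammalian gut, had 14 and 4 counts against 0 and 225 (4.95, SE 1.42, adjusted p = 0.0403). The 225 counts came from metamorphosed skin replicate 2, the library with 1501 CPM of intestinal markers, and without it *Reg4* was no longer called and its fitted sign turned (-5.45). *Zg16* was not called without that library either, at 6.96. Replicate 1, on which that value rests, itself had 289 CPM of intestinal markers, against 18.2 and 6.84 in neotenic skin. Metamorphosed skin replicate 2 also held 3198 CPM of liver markers, and the intestinal list is high in liver too. The part of these markers was not tested. In the fit with a replicate block within each state, at replicate 1, *Reg4* was also lost (3.43, adjusted p = 0.142). With 4 of its 14 genes tested, this list had a median of 3.48.

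Of the mucous cell regulators, *Creb3l4*, a transcription factor of secretory cells, fell by 3.98 on the log2 scale (SE 1.09, adjusted p = 0.0346), from 55.5 and 72.8 CPM to 8.06 and 3.61, from 1 and 27 counts. With the replicate block within each state, at replicate 1, its adjusted p was 0.0656 (-3.16). Leaving out 1 skin library gave -4.16 to -2.99, and not every such fit kept the call. None of the other 11 tested passed. *Spdef*, which drives goblet cell differentiation in mice, had 9 and 10 counts in neotenic skin and 0 in both metamorphosed libraries, a level the shallow library could not resolve. The list's median was -1.09, and -0.76 without the 3 genes at 0 in both libraries of a state. Of the 17 folding and O-glycosylation genes tested, *Galnt4*, which adds the first sugar of O-linked chains, fell by 1.65 (SE 0.37, adjusted p = 0.0172), from 132 and 120 CPM to 16.1 and 53.2, from 2 and 398 counts, and the list's median was -0.74. Leaving out 1 skin library gave -2.97 to -1.25 for *Galnt4*, and here too not every fit kept the call.

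No other list had a called gene in skin. The only other secreted mucin tested, *Muc2*, had 18 and 11 counts in neotenic and 6 and 46 in metamorphosed skin (3.96, adjusted p = 0.0803). It is counted in 2 models that overlap on opposite strands, so its value is uncertain in counts taken without strand. The 7 membrane mucins had a median of -4.47, and *Muc1* had 37.6 and 30.4 CPM against 40.3 and 183 (1.81, adjusted p = 0.272). Of the 5 relatives with von Willebrand D domains, *Otog*, otogelin of the inner ear's gelatinous membranes in mammals, had 1438 and 1434 CPM in neotenic skin and 48.3 and 46.5 in metamorphosed skin (-4.93, SE 1.92, adjusted p = 0.116). The medians of the 9 granule release genes and the 10 genes of interleukin 13 and epidermal growth factor signalling were -0.55 and -1.87, with *Marcks* at -0.26 and *Adam17* at -0.72. Outside skin, the called genes of the lists were 1 higher and 1 lower in hind limb, where 0.322% and 0.277% of all genes were called, 1 higher in spleen (0.287%) and 3 lower in tail (0.356%).

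**Figure D5:**
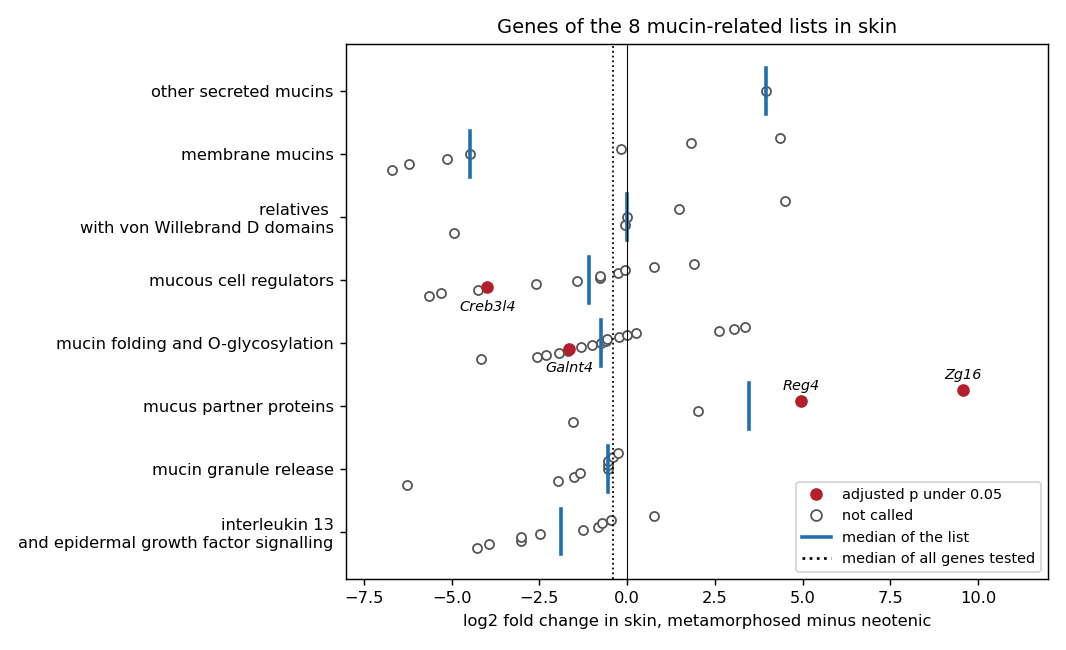
Log2 fold change in skin, metamorphosed minus neotenic, of the 65 tested genes of the 8 lists, with filled points for adjusted p under 0.05, a bar at each list's median and a dotted line at the median of all genes (-0.39). *Zg16* and *Reg4* are the called genes above 0 and *Creb3l4* and *Galnt4* those below, and 5 of the 8 medians lie below the dotted line.

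The genes whose pattern was most like the 2 mucins were ranked by Pearson's correlation of log2(CPM + 1) over the 32 group means, which share libraries and tissues, so that no p is given. Models annotated only by a LOC number or as hypothetical were left out of the ranking. *Muc5ac* and *Muc5b* were each other's first, at r = 0.99 and Spearman's rho = 0.98. For *Muc5ac* the next with a name was a model annotated only as "cytochrome" (r = 0.88), then *Zbtb11*, a zinc finger gene (0.85), *cnfn.1*, named for cornifelin of cornified epithelium (0.85), and *Muc1* (0.81). For *Muc5b* the next were the same 3 models (0.86, 0.83 and 0.82) and *Dmbt1*, a secreted scavenger receptor protein of mucosal surfaces (0.80). The unnamed neighbour, left out of the ranking, had r = 0.97 with *Muc5ac* and 0.94 with *Muc5b*, while the second *Muc5b* model had 0.08 and 0.14.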

How the data were processed

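Total RNA was extracted with TRIzol (the labels give the molecule as poly(A) RNA), made into libraries by tagmentation and sequenced as paired 150 bp reads on a HiSeq. The authors aligned the reads with STAR to the AmexG v3.0.0 assembly and deposited whole-number counts per gene model from featureCounts 1.6.0, not normalized and not counted by strand. The counts of the 61 libraries were analysed here in edgeR 4.0.16 (R 4.3.3) with TMM normalization, filterByExpr and quasi-likelihood tests, with 1 coefficient per state and tissue over all libraries (20216 genes) and a separate model of the 34 neotenic libraries (18982 genes). No sample column was left unused.

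Benjamini-Hochberg adjustment ran over all genes of a contrast, and 0.05 was the threshold. Fits that left out a library kept the genes, normalization factors and dispersion trend of the full fit, and a lone library was assumed to vary like the other groups. The fits without only the libraries labelled neotenic stomach and tail replicate 2 together were the exception. There the genes (20220 in the model of both states), normalization factors and dispersion were estimated anew. DESeq2 1.42.0, its size factors, no filter on low counts, the 4 libraries of a tissue alone and a replicate block were the alternatives. With the block within each state, the contrast was the state effect at replicate 1 and not a mean over both replicates. The gene lists and the 2 members were chosen with earlier results of these data known. Genes were named by a rule: in skin, up to 4 called genes of each list with the largest fold change, or the gene with most counts, and in other tissues up to 2 called genes of the mucin lists. *Dmbt1*, *Muc1* and the other genes of like pattern were the 5 with the highest correlation among models with a gene symbol, leaving out those annotated only by a LOC number or as hypothetical, and *Spdef* was added after its values were seen.

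The titles give each library a batch number, 1 or 2, within its tissue and state, and these were taken as the replicate numbers and as the pairing of a replicate block. The deviations of same-numbered libraries correlated between the states at -0.38 to 0.29 over genes, over 0.1 in 3 of 12 tissues. The test was run on simulated counts for 2 skin libraries against 2. Each gene was drawn at the dispersion trend or at a fixed dispersion, with no spread of its own. The changed genes were picked among those above a least total count. The rates therefore do not describe the test of the 2 mucins. At the dispersion trend of these libraries, 41.0% of 16-fold and 3.0% of 4-fold changes were called, and 4.35% of 46 calls were false. At a lower dispersion of 0.1, 78.0% and 35.0% were called, and 11.7% of 128 calls were false. Total counts set the precision, and intervals of counts cover counting error only.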

Additional observations from a re-analysis of the deposited data

Results flagged for a closer look

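The state effect of *Muc5b* in tail differed from the mean effect of the other 11 tissues by -8.79 on the log2 scale (SE 1.90, adjusted p = 0.0420 by edgeR's quasi-likelihood test of the difference itself, with n = 2 libraries per state). Both metamorphosed tail libraries, at 2.08 and 12.7 CPM, were below both neotenic ones, at 115 and 4109. The difference was -4.49 (adjusted p = 0.487) without the 2 neotenic libraries, labelled stomach and tail replicate 2, whose markers go against their labels.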

How the results depend on the processing

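Each tissue had 2 libraries per state, and leaving out 1 library moved several values across 0. The tail values also moved but stayed below 0. These ranges of log2 fold change were, for *Muc5ac*, -2.27 to 0.58 in bladder, -0.37 to 3.25 in cloacal chamber, -0.28 to 2.30 in hind limb, -0.11 to 0.18 in lung, -0.49 to 1.16 in skin, -0.84 to 6.12 in stomach and -9.48 to -2.42 in tail. For *Muc5b* they were -2.42 to 0.27 in bladder, -0.58 to 2.67 in cloacal chamber, -1.57 to 1.85 in hind limb, -0.13 to 0.93 in kidney, -0.29 to 1.54 in liver, -1.09 to 0.91 in skin, -1.62 to 5.10 in stomach and -9.97 to -3.94 in tail. Among neotenic tissues gill ranged from -1.82 to 0.23 and -2.14 to 0.46 and skin from -0.17 to 1.38 and -0.20 to 1.69 for *Muc5ac* and *Muc5b*. In skin *Reg4* ranged from -5.45 to 5.72 and *Marcks* from -1.16 to 0.25.

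Without the libraries labelled neotenic stomach and tail replicate 2, *Muc5ac* was at -0.84 in stomach and -2.41 in tail. *Muc5b* was at -3.93 in tail, at -4.49 for the tail difference and at 0.19 for the mean. In that setting 8 neotenic tissues were called for *Muc5ac* in place of 5. The share of all genes called there is not given, so this count is not read as a result about *Muc5ac*. Without the 4 metamorphosed libraries with raised markers of other tissues, an alternative chosen after seeing the data, bladder was at 0.58 and 0.27, hind limb at -0.28 and -1.57 and *Reg4* in skin at -5.38. Without those 4 and the 2 before, the *Muc5b* mean was 0.060. With the 3 neighbouring models added together, also chosen after seeing the data, lung was at -0.077, tail at -6.77, and, against *Muc5b*, skin at 1.44, stomach at 0.14 and the mean at 0.99. Leaving tail out of the mean gave 1.30 for *Muc5ac* and 0.65 for *Muc5b*. With the 4 libraries of a tissue alone, tail was at -7.09 (adjusted p = 0.713) and -8.17 (adjusted p = 0.681) and *Muc5ac* in spleen at 2.55. The ratio of *Muc5ac* to *Muc5b* became -0.76 and 1.55 with the unnamed model as partner. In skin the lists had 6 genes called higher and 6 lower by DESeq2 (1042 and 776 of all genes), and 7 and 11 with the 4 libraries alone (957 and 1240 of 13854). They had 5 lower without the 2 libraries (606 and 685 of all genes called higher and lower). With DESeq2's size factors they had 1 lower (295 of all genes), and the skin median of all genes moved from -0.39 to -0.25. With the replicate block within each state, at replicate 1, *Muc5ac* in lung was at -0.13. The lists then had 1 gene called higher in skin (167 of all genes), and with the replicate block over all tissues 4 lower (582 of all genes). Beside these and the calls given for brain, *Creb3l4*, *Reg4* and the unnamed model, the replicate block changed no other call. The causes were not tested.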

Other observations

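The level of both mucins in the 4 libraries of the tissues labelled neotenic stomach and tail followed the 2 stomach gland markers with a model, *Gkn1* and *Aqp4*, not the labels. The 2 libraries with 12034 and 15588 CPM of those markers had 17293 and 5114 CPM of *Muc5ac*, and the others, at 7.67 and 4.75 CPM of the markers, had 139 and 105. The second *Muc5b* model was split the other way, with 942 and 55 counts in the libraries with low stomach markers and 1 in each of the others.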
